A study of Mus musculus with 8 samples.

Results

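Ifi202b and Ifi204 belong to the interferon-inducible p200 gene family of mouse chromosome 1, and their levels were followed in the colon of C3H/HeJBir and C57BL/6J mice with and without Il10. Of the 12422 probe sets of the array, 6 were annotated to these 2 genes. The first probe set was annotated to Ifi202b alone, and another to Ifi202b together with LOC100044068. Ifi204 alone was read by 1 probe set with the suffix _f, which marks probes drawn from a family of similar sequences, and by 2 with the suffix _r. A further probe set was annotated to Ifi204 together with its family neighbours Mndal, Ifi211 and Ifi205. Of the 6 probe sets, 3 had a mean intensity over all arrays above the filter on low values, at least 37.0, and entered the tests: that of Ifi202b alone, the _f probe set of Ifi204 and that shared by Ifi204, Mndal, Ifi211 and Ifi205. The pair of genes was chosen on earlier results of these arrays, the strain differences among them.

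RNA of whole colon was measured on 8 Affymetrix MG_U74Av2 arrays, each hybridised with a pool holding 7 µg of RNA from each of 4 or 5 mice. The 4 groups were C3H/HeJBir carrying the targeted allele Il10tm1Cgn (called C3H/HeJBir Il10-null), C3H/HeJBir wild type, C57BL/6J carrying the same allele (C57BL/6J Il10-null) and C57BL/6J wild type, with 2 pools each, numbered sample 1 and sample 2. Il10 encodes interleukin 10, a cytokine that restrains inflammation, and the allele is carried in every tissue, not in a chosen cell type. An age, 4 weeks, is given for C57BL/6J wild type, sample 2, while for the other pools no age, and for no pool a sex or treatment, is named in the labels.

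Proteins of the p200 family carry a HIN domain, which binds DNA, and most members have a pyrin domain as well, through which they join other proteins. The protein of Ifi204, p204, is best known from mouse macrophages, where it takes part in sensing foreign DNA and binds regulators of growth and differentiation such as the retinoblastoma protein and the Id proteins. The protein of Ifi202b, p202, has HIN domains but no pyrin domain and can restrain the DNA sensor Aim2. Ifi202b is known as a gene whose level differs between inbred mouse strains and as a candidate in mouse models of lupus. The genes are neighbours, with 5 annotated genes between Ifi204 and Ifi202b in the gene order of the mouse assembly GRCm38.p6, and the cluster they sit in is separated from Il10, on the same chromosome, by 807 annotated genes.

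The sequence upstream of Ifi202b is shown because its level separated the strains. It is that of the C57BL/6J reference, the strain in which the Ifi202b probe sets were low. The 250 bases before the annotated start lie on the minus strand at chr1:173982845-173983094 (RefSeq, GRCm38.p6), with capitals marking a match to the letters TTCNNNGAA, called GAS, an element of interferon-responsive promoters.
Ifi202b: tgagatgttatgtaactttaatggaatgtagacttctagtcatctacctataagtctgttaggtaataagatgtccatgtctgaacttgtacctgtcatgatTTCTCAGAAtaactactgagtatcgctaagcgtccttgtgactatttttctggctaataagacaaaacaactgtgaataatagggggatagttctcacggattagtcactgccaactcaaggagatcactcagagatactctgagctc
The match begins 148 bases before the start (position -148). GAS matches were found in 7.02% of the 32851 promoter windows of this length in the RefSeq table. The letters GAAA, 2 bases of any kind and GAAA again, the core of the interferon-stimulated response element (ISRE), were searched on both strands and did not occur in this window, and the same letters were found in 2.98% of all windows.

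Of 12 family genes with a promoter in the table, 9 held the ISRE letters in at least 1 window (10 of 14 windows), and Aim2, Ifi209 and Ifi202b held them in none. Ifi204 had no promoter in the table, so it is not among the 12 and was not searched. The family genes are related in sequence, so these matches are not independent. No family window held overlapping ISRE and GAS matches. The stretches around the match, with the match in capitals, are given for the genes that share a probe set with Ifi204 or are read by another probe set of the array. All 5 lie on the minus strand of chromosome 1, Mndal at chr1:173880202-173880235, Ifi211 at chr1:173913062-173913095, Ifi205 at chr1:174031868-174031901, Ifi203 at chr1:173942506-173942539 and Ifi207 at chr1:173741829-173741862.
Mndal: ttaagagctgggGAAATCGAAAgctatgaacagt
Ifi211: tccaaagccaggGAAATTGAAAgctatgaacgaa
Ifi205: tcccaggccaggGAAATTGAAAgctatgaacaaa
Ifi203: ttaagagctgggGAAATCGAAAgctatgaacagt
Ifi207: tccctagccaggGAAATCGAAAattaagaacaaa
The Mndal and Ifi203 stretches had the same letters throughout.

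The arrays as deposited had nearly the same mean after trimming at both ends, with a ratio of 1.01 between arrays. Their median intensity was 60.1 to 62.2 in sample 1 pools and 50.1 to 54.9 in sample 2 pools. The single Il10 probe set had a mean of 21.3, below the filter. Its values were 28.3 and 35.4 for C3H/HeJBir Il10-null, against 5.43 and 10.9 for C3H/HeJBir wild type, and 51.7 and 22.0 for C57BL/6J Il10-null, against 9.70 and 7.34 for C57BL/6J wild type. Whether it covers the part that the allele alters is unknown here, so it checks no label. The female-specific RNA Xist ranged over 243 to 452 in sample 1 pools, but over 2.84 to 12.9 in sample 2 pools. Eif2s3y, a gene of the Y chromosome, ranged over 39.7 to 318 in sample 1 pools and 256 to 411 in sample 2 pools, and was lower in sample 1 than in sample 2 within each of the 4 groups. By Xist, every sample 1 pool held RNA of females and the sample 2 pools held little or none. Any difference between sample 1 and sample 2 pools therefore cannot be told apart from a difference of sex or of hybridisation day. The 11 colon epithelium markers on the array all passed the filter and summed to 48057.9 to 53100.5 in C3H/HeJBir pools and 46631.6 to 55444.4 in C57BL/6J pools.

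Ifi202b was high in every C3H/HeJBir pool and near the bottom of the intensity range in every C57BL/6J pool. The probe set of Ifi202b alone read 128 and 87.0 for C3H/HeJBir Il10-null (samples 1 and 2). In C3H/HeJBir wild type it read 69.1 and 77.3. In C57BL/6J Il10-null pools it read 14.8 and 5.60, and in C57BL/6J wild type 5.04 and 0.50. No C3H/HeJBir pool overlapped a C57BL/6J pool, where 2.04% of all 12422 probe sets had all 4 C3H/HeJBir pools above all 4 C57BL/6J pools. Among all probe sets of its own array, Ifi202b stood between the 52.5th and the 68.6th percentile in C3H/HeJBir pools and between the 0.527th and the 22.6th in C57BL/6J pools.

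Strain values of both genes are a description without a test, since they bore on the choice of the genes. On the scale of log2(intensity + 11.07), where 11.07 is the 20th percentile of all values, Ifi202b was higher in C3H/HeJBir than in C57BL/6J by 2.49 ± 0.31 (SE) between Il10-null pools and by 2.62 ± 0.31 between wild-type pools (n = 2 pools each). The size is set largely by the added constant, since the C57BL/6J values lie around or below it: with a constant of 2.76 the same differences were 3.16 and 3.91, and with 56.7 they were 1.29 and 1.13. Of all tested probe sets, 0.161% were called higher in C3H/HeJBir between Il10-null pools and 0.215% between wild-type pools (limma, adjusted p under 0.05).

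The strains could be set against each other on each hybridisation day recorded in the experiment files. Between the sample 1 Il10-null pools, hybridised on day 1, the log2 difference of Ifi202b was 2.43. Between the sample 1 wild-type pools of day 2 it was 2.31. Within day 3, which held the 4 sample 2 pools, it was 2.56 between Il10-null pools and 2.93 between wild-type pools.

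The probe set shared by Ifi202b and LOC100044068 showed the same split at a lower level. It read 54.2 and 17.3 in C3H/HeJBir Il10-null pools and 21.6 and 20.1 in C3H/HeJBir wild type. In C57BL/6J it read 2.42 and 0.64 in Il10-null pools and 2.55 and 1.58 in wild type. The C3H/HeJBir values lay between the 28.5th and the 47.6th percentile of their arrays and the C57BL/6J values between the 0.873rd and the 3.45th. Its mean of 15.0 lay below the filter, and which of its annotated genes it reads cannot be told from the array.

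Ifi204 was also higher in C3H/HeJBir, by its brightest probe set, but with a wide spread within C57BL/6J. The _f probe set read 180 and 83.9 in C3H/HeJBir Il10-null pools (samples 1 and 2), and 122 and 77.8 in C3H/HeJBir wild type. In the C57BL/6J Il10-null pools it read 4.09 and 66.0, and in C57BL/6J wild type 42.5 and 25.7. The lowest C3H/HeJBir pool, at 77.8, stood above the highest C57BL/6J pool, at 66.0, though these neighbours were close. The strains thus did not overlap, and 2.04% of all 12422 probe sets were so separated upward. The sample 1 C57BL/6J Il10-null pool, at 4.09, was at the 6.83rd percentile of its array, where the other C57BL/6J pools were at the 35.3rd to 54.4th.

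The log2 difference of Ifi204 between the strains was 1.98 ± 0.69 between Il10-null pools and 1.29 ± 0.69 between wild-type pools (SE, n = 2 pools each). The first value rested on the sample 1 C57BL/6J Il10-null pool: it was 3.65 between the sample 1 pools and 0.30 between the sample 2 pools, and 0.81 without that pool. Leaving out the sample 2 C57BL/6J Il10-null pool in its place gave 3.15. Between wild-type pools the difference was 1.31 for sample 1 and 1.27 for sample 2.

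**Figure D1:**
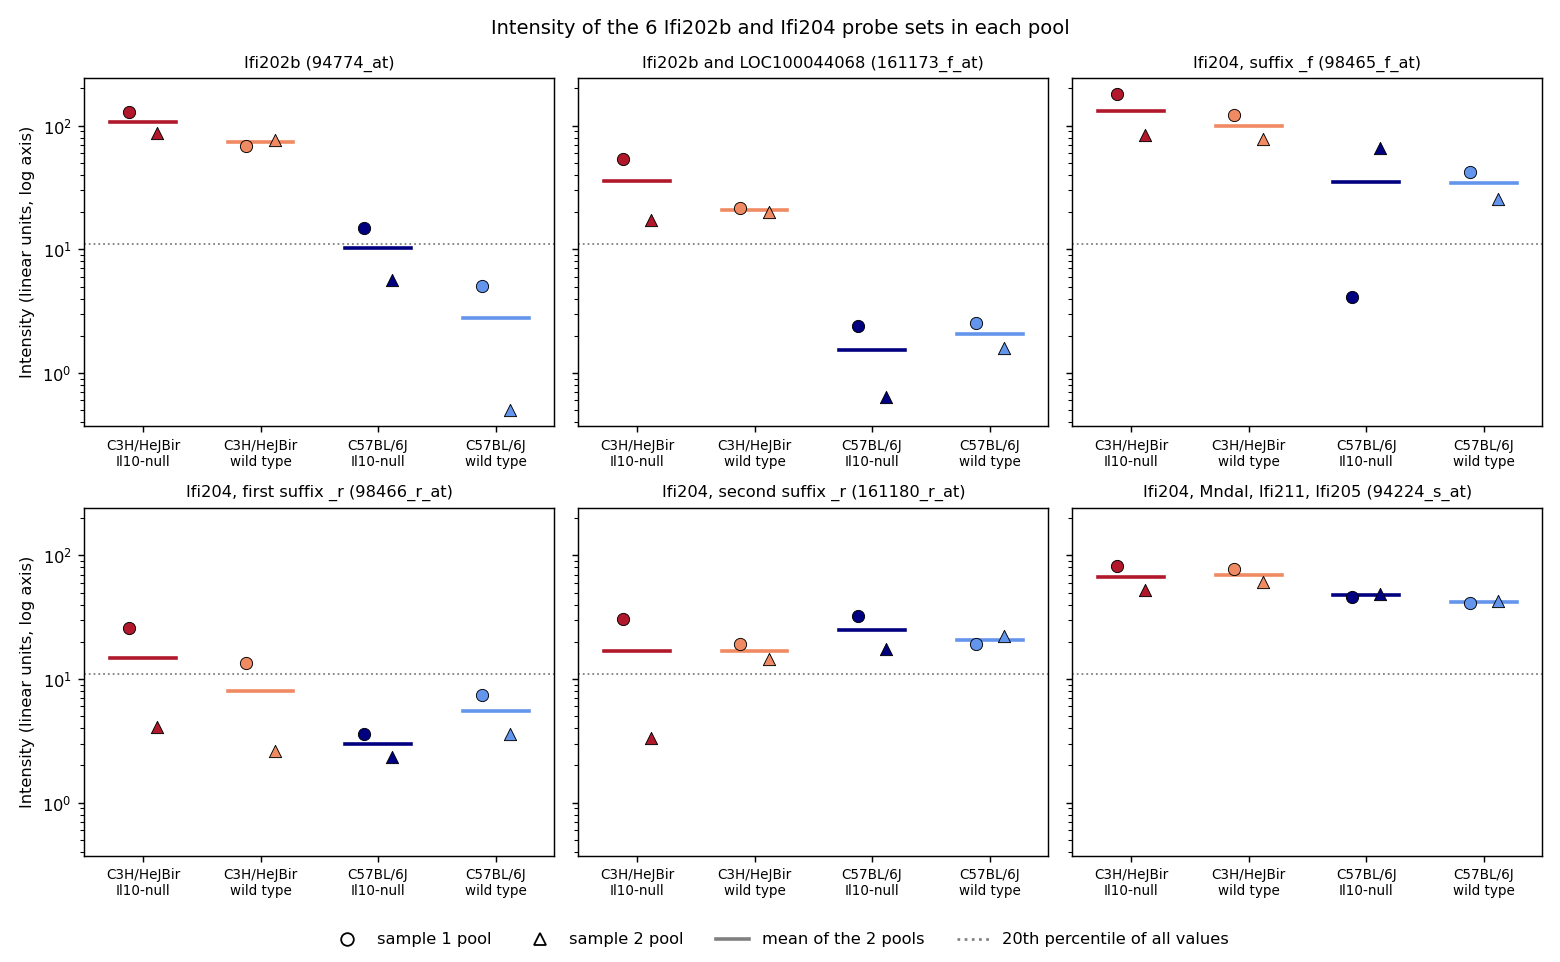
Intensity (linear units on a log axis) of the 6 probe sets annotated to Ifi202b and Ifi204, 1 panel each, in the 4 groups. Circles are sample 1 pools, triangles sample 2 pools, bars the mean of the 2 pools, and the dotted line is the 20th percentile of all values, 11.07; the probe set of Ifi202b alone was at 69.1 or more in every C3H/HeJBir pool and at 14.8 or less in every C57BL/6J pool.

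The other probe sets of Ifi204 did not show one common pattern. The first _r probe set was low throughout, at 25.7 and 4.07 in C3H/HeJBir Il10-null pools and 13.4 and 2.62 in C3H/HeJBir wild type, against 3.62 and 2.35 in C57BL/6J Il10-null pools and 7.46 and 3.59 in C57BL/6J wild type. The strains overlapped on it. The second _r probe set ran the other way on average, at 30.4 and 3.36 in C3H/HeJBir Il10-null pools and 19.1 and 14.5 in C3H/HeJBir wild type, against 32.4 and 17.4 in C57BL/6J Il10-null pools and 19.2 and 22.2 in C57BL/6J wild type. Its log2 strain difference, in a fit without the filter, was -0.52 ± 0.47 between Il10-null pools and -0.20 ± 0.47 between wild-type pools.

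The probe set shared by Ifi204, Mndal, Ifi211 and Ifi205 read 81.7 and 52.3 in C3H/HeJBir Il10-null pools and 77.1 and 60.8 in C3H/HeJBir wild type. In C57BL/6J it read 46.4 and 48.5 in Il10-null pools and 40.9 and 42.4 in wild type. All 4 C3H/HeJBir pools stood above all 4 C57BL/6J pools, as in 2.04% of all 12422 probe sets. Within 1 genotype, 11.9% of tested probe sets were separated upward between Il10-null pools and 14.0% between wild-type pools. The log2 differences were 0.39 ± 0.26 between Il10-null and 0.59 ± 0.26 between wild-type pools. The first was 0.69 between the sample 1 pools and 0.09 between the sample 2 pools. It was 0.12 without the sample 1 C3H/HeJBir Il10-null pool and 0.66 without the sample 2 pool of that group. Which of the 4 genes carried the signal cannot be told from the array.

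Taken over the 6 probe sets, all 4 C3H/HeJBir pools stood above all 4 C57BL/6J pools in 4 of them, where 2.04% of all 12422 probe sets did so. Since strain values entered the choice of the genes, nothing is read from this count. Agreement between probe sets was measured as the root-mean-square difference of their log2 profiles over the 8 pools, each centred on its own mean. It was 0.61 between the pair of Ifi202b probe sets, and 0.52 to 1.29 among the 3 probe sets of Ifi204 alone. The sample 1 C3H/HeJBir Il10-null pool gave the highest value of the 8 pools in 5 of the 6 probe sets, and in 19.3% of all tested probe sets. Exocrine pancreas genes were also highest in that pool, with a median log2 deviation of 1.74 over 5 genes on the array, against -1.08 to 1.24 in the other pools. Neutrophil markers summed to 1006.5 there, against 272.5 to 400.6 in the other pools, and T and NK cell markers to 486.2, against 281.0 to 371.2. Smooth muscle markers were lowest there, at 8534.7, against 10174.1 to 14842.9. The part of these cells in the levels was not tested. Without that pool the strain difference between Il10-null pools was 2.24 for Ifi202b and 1.47 for Ifi204.

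The order of the group means of Ifi202b was C3H/HeJBir Il10-null at 108 ± 29.2, C3H/HeJBir wild type at 73.2 ± 5.79, C57BL/6J Il10-null at 10.2 ± 6.52 and C57BL/6J wild type at 2.77 ± 3.21 (SD, n = 2 pools each). For Ifi204 (_f) the order was C3H/HeJBir Il10-null at 132 ± 67.8, C3H/HeJBir wild type at 99.8 ± 31.1, C57BL/6J Il10-null at 35.0 ± 43.7 and C57BL/6J wild type at 34.1 ± 11.9. The C3H/HeJBir means differed by less than the SD of the Il10-null pools and by slightly more than that of the wild-type pools, and the C57BL/6J means by less than either SD.

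The comparison of Il10-null with wild-type pools asks whether loss of Il10 changed the level of these genes within a strain. Ifi202b did not pass the test in either strain. In C3H/HeJBir it read higher in both Il10-null pools than in both wild-type pools, with a log2 difference of 0.47 ± 0.31 (95% interval -0.24 to 1.19, limma adjusted p = 0.999). The value was 0.22 without the sample 1 Il10-null pool and 0.73 without the sample 2 Il10-null pool. With the hybridisation day as a block it was 0.27, a value that draws on the low C57BL/6J pools as well. Between the sample 2 pools of C3H/HeJBir, hybridised on the same day, the difference was 0.15. In C57BL/6J the fit gave 0.61 ± 0.31 (95% interval -0.11 to 1.32, limma adjusted p = 1.0), but Ifi202b passed the filter only through C3H/HeJBir. Its mean over the C57BL/6J pools was 6.49, where values have no dependable order, so neither a change nor its absence is read from that fit. Leaving out 1 pool moved it between 0.29 and 0.92, and the day block gave 0.40. Of all tested probe sets, 11.3% were separated upward in C3H/HeJBir, while 0.0134% were called in C3H/HeJBir, 1 probe set, and 0.0% in C57BL/6J (limma adjusted p under 0.05). Before adjustment 211 probe sets, or 2.83%, had a p under 0.05 in C3H/HeJBir, and 118, or 1.58%, in C57BL/6J. Both intervals include 0.

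Ifi204 (_f) did not pass either. It entered the tests through C3H/HeJBir, with a mean of 116 there against 34.6 in C57BL/6J, below the filter. Its Il10-null pools overlapped the wild-type pools in C3H/HeJBir, with a log2 difference of 0.31 ± 0.69 (95% interval -1.28 to 1.89, limma adjusted p = 0.999), and in C57BL/6J, with -0.38 ± 0.69 (95% interval -1.96 to 1.21, limma adjusted p = 1.0). The C57BL/6J value was -1.82 between the sample 1 pools and 1.07 between the sample 2 pools, and it turned to 0.80 without the sample 1 Il10-null pool. The C3H/HeJBir value turned to -0.20 without the sample 1 Il10-null pool. The genotypes were hybridised on the same day only for the sample 2 pools, where the difference was 0.10 in C3H/HeJBir and 1.07 in C57BL/6J. With the day as a block, in a fit over the pools of both strains, the values were 0.92 in C3H/HeJBir and 0.24 in C57BL/6J. The C3H/HeJBir value of that fit thus draws on C57BL/6J pools as well.

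The probe set shared by Ifi204, Mndal, Ifi211 and Ifi205 differed by -0.05 ± 0.26 between Il10-null and wild type in C3H/HeJBir and by 0.15 ± 0.26 in C57BL/6J, where both Il10-null pools stood above both wild-type pools, as did 12.6% of tested probe sets (limma adjusted p = 0.999 in C3H/HeJBir and 1.0 in C57BL/6J). Subtracting the C57BL/6J effect of Il10 loss from that in C3H/HeJBir gave -0.13 ± 0.44 for Ifi202b (95% interval -1.15 to 0.88) and 0.69 ± 0.98 for Ifi204 (95% interval -1.55 to 2.93). Neither passed (limma adjusted p = 1.0 for each). Of tested probe sets, 0.0% were called in this comparison, with 112, or 1.5%, at a p under 0.05 before adjustment. The Ifi202b value draws on its C57BL/6J pools, where values have no dependable order. It was -0.75 with an added constant of 2.76 and 0.16 with 56.7. Neither a difference between the effects nor its absence is therefore read for Ifi202b.

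**Figure D2:**
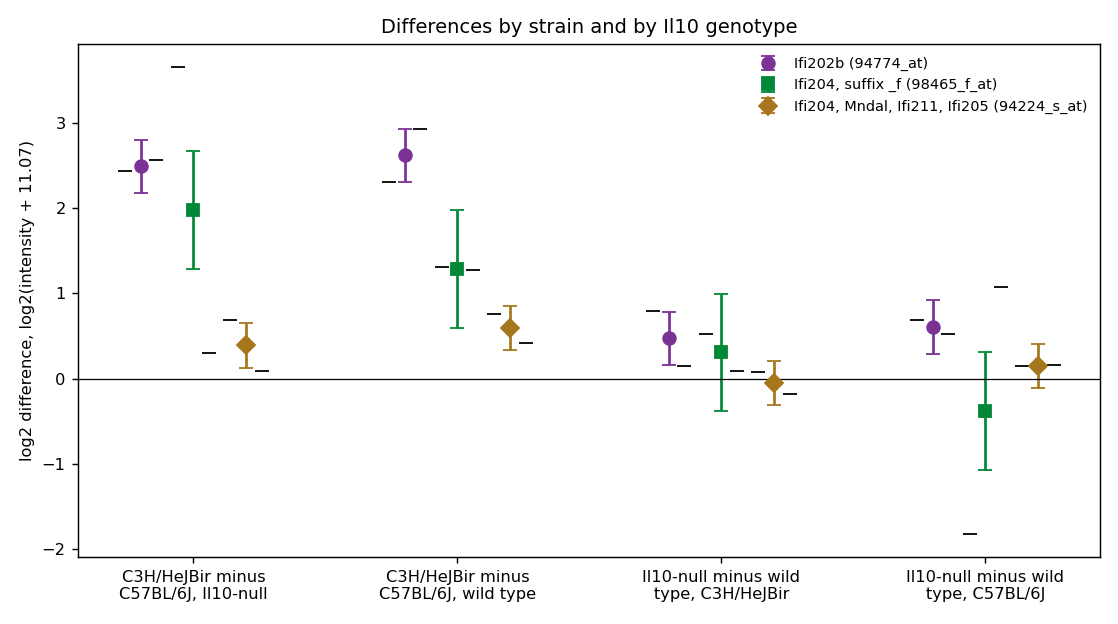
log2 differences of the 3 tested probe sets, on the scale of log2(intensity + 11.07), for both strain comparisons and both Il10 comparisons. Markers with bars are the fitted difference ± SE, and the black dashes left and right of a marker are the difference between the sample 1 and between the sample 2 pools; Ifi202b stood at 2.49 and 2.62 by strain with dashes close by, while the dashes of Ifi204 ran from -1.82 to 1.07 for Il10 loss in C57BL/6J.

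Other genes of the family were read by 3 more probe sets, all with a mean below the filter. The probe set of Ifi203, shared with LOC100862473 and the pseudogene Ifi203-ps, read 2.92 and 20.3 in C3H/HeJBir Il10-null pools and 24.9 and 26.6 in C3H/HeJBir wild type. In C57BL/6J it read 6.79 and 1.74 in Il10-null pools and 0.88 and 2.39 in wild type. Here the C3H/HeJBir wild-type pools stood above all other pools, and the sample 1 C3H/HeJBir Il10-null pool, which was highest for Ifi202b, was down among the C57BL/6J pools. In the fit without the filter its strain difference was 1.54 ± 0.39 between wild-type pools and did not pass (limma adjusted p = 0.472). Between Il10-null pools it was 0.47 ± 0.39 (limma adjusted p = 1.0). Ifi207 read 24.5 to 40.9 in C3H/HeJBir pools and 17.3 to 42.1 in C57BL/6J pools, and Ifi209 read 1.27 to 6.15 in C3H/HeJBir pools and 1.07 to 6.86 in C57BL/6J pools. Both overlapped between the strains.

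On the chromosome, the strain difference was not shared by most of the nearest tested genes on either side of the cluster. In gene order these stood at places -67 to -30 before the cluster and 17 to 125 after it, so genes closer by are not covered. Of the 20 nearest genes with a tested probe set, 10 on each side, 1 passed in each strain comparison, Mptx1, which encodes a pentraxin of the gut mucosa and is the nearest of those after the cluster. It was higher in C3H/HeJBir by a log2 of 2.65 between Il10-null pools (limma adjusted p = 0.0192) and 3.02 between wild-type pools (limma adjusted p = 0.00949). Over all tested probe sets 0.295% were called between Il10-null and 0.403% between wild-type pools, in either direction. The 20 genes had a median log2 strain difference of 0.08 between Il10-null pools and -0.10 between wild-type pools, where all tested probe sets had -0.02 in each. Those before the cluster, from Ly9 to Tagln2, and those after Mptx1, from Fh1 to Ephx1, did not pass, and in the 4 C3H/HeJBir and 4 C57BL/6J pools Mptx1 alone of the 20 was fully separated.

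**Figure D3:**
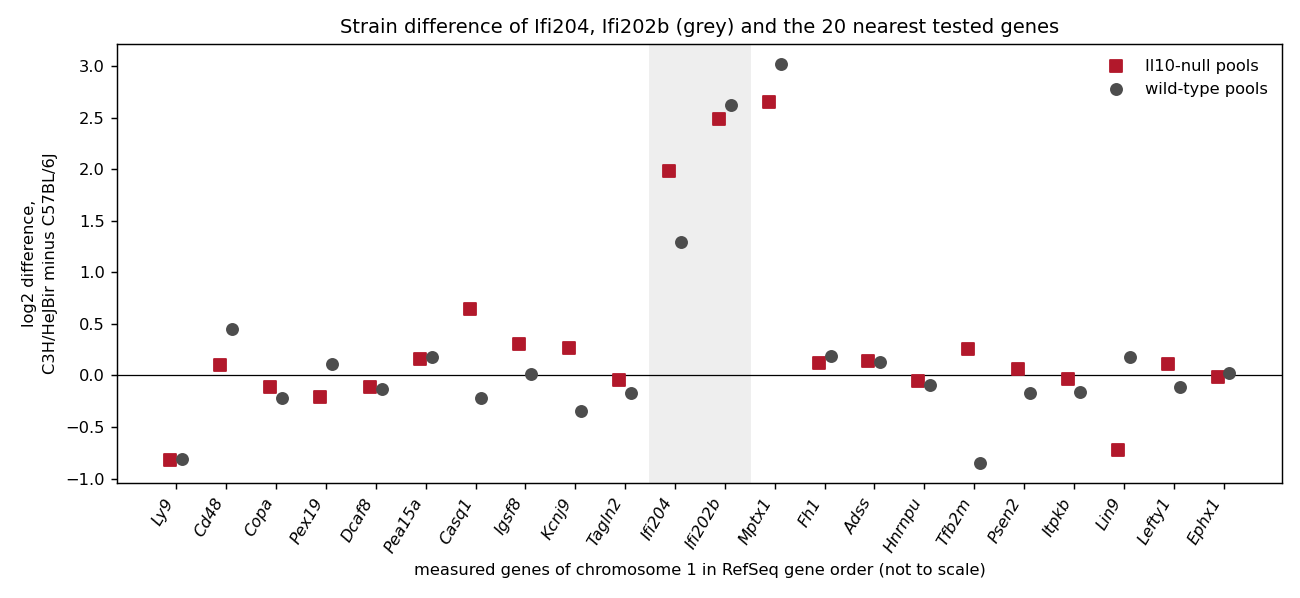
log2 difference, C3H/HeJBir minus C57BL/6J, of Ifi204 (_f) and Ifi202b on grey ground and of the 20 nearest tested genes, in RefSeq gene order along chromosome 1. Squares are Il10-null pools and circles wild-type pools; Mptx1, at 2.65 and 3.02, stood with Ifi202b, and the other neighbours lay between -0.85 and 0.64.

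Genes with a profile close to that of a member were looked for by the same root-mean-square measure over the 8 pools, a description with no test. Closest to Ifi202b were Cd14, a co-receptor for bacterial lipopolysaccharide, at 0.27, and Cap1, a regulator of actin, at 0.29, followed by H2-D1, an MHC class I heavy chain, at 0.50, Mmp7, the protease matrilysin, at 0.50 and Hebp1, a heme-binding protein, at 0.54. All 5 were higher in every C3H/HeJBir pool than in every C57BL/6J pool, and they lie on 5 other chromosomes. Cap1 read 175 to 254 in C3H/HeJBir and 30.8 to 54.8 in C57BL/6J pools. Ifi204 came only at place 65 from Ifi202b, at 0.97.

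Closest to Ifi204 (_f) were the antibody variable segment Ighv1-54 at 0.32, the kinase-like gene Adck1 at 0.42, an antibody kappa variable segment at 0.48, the mast cell protease gene Cma2 at 0.49 and Lyz2, the lysozyme of macrophages, at 0.51. In all 5 the sample 1 C57BL/6J Il10-null pool was the lowest of the C57BL/6J pools, as it was for Ifi204. The choice by likeness to Ifi204, whose largest deviation lies in that pool, makes this a description of how they were picked. Of the 5 probe sets, 4 carried the suffix _f, as does that of Ifi204, where 8.20% of tested probe sets carried it. The part of this suffix in the pattern was not tested.

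**Figure D4:**
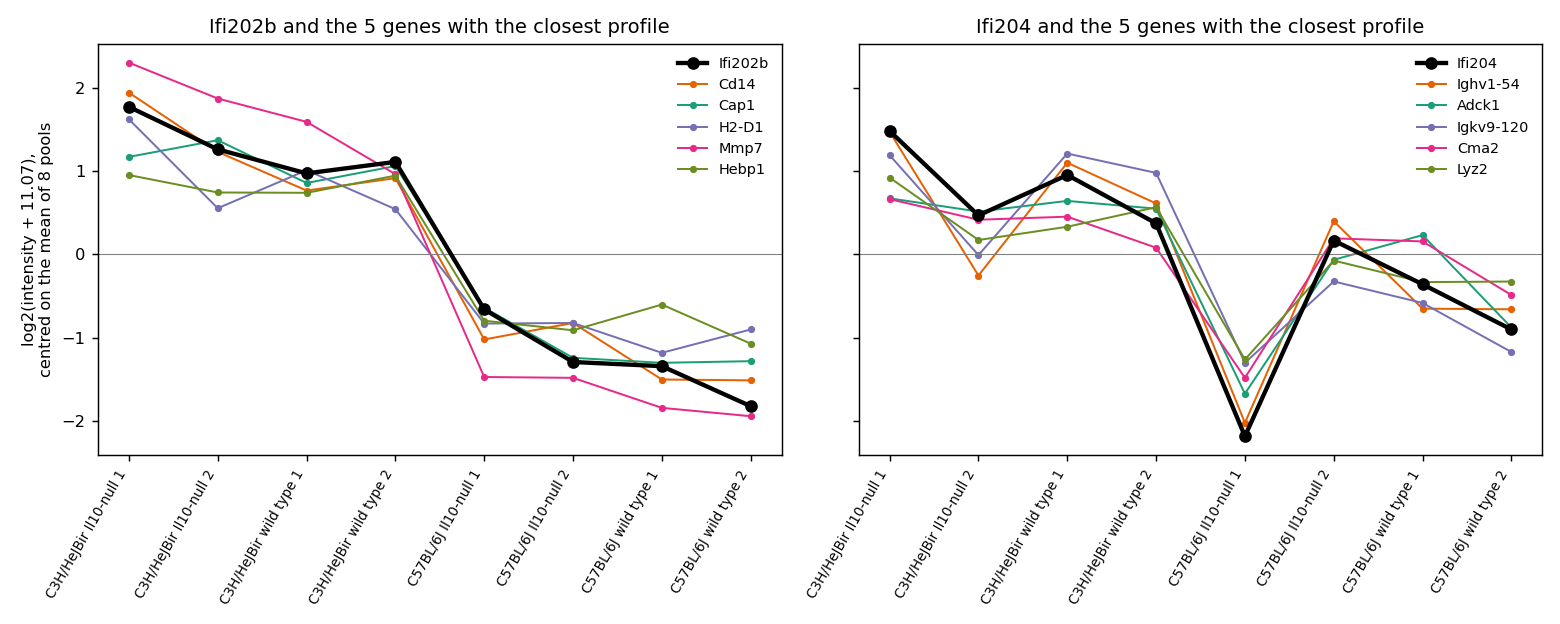
Profiles over the 8 pools of Ifi202b (left) and Ifi204 (right), in black, and of the 5 genes closest to each, as log2(intensity + 11.07) centred on the mean of the 8 pools. Ifi202b and its 5 genes stepped down between the strains, and Ifi204 and its 5 genes were lowest in the sample 1 C57BL/6J Il10-null pool, where Ifi204 stood at -2.18.

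Interferon-induced genes were set beside the members because the family is interferon-inducible. Of 13 tested targets of type I interferon, 0 passed in any comparison. Between wild-type pools all 13 had a positive strain difference, with a median log2 of 0.88 and a smallest limma adjusted p of 0.0634. Between Il10-null pools 9 of 13 were positive, with a median of 0.23. The ubiquitin-like gene Isg15 read 698 ± 105 in C3H/HeJBir wild type against 139 ± 28.4 in C57BL/6J wild type (SD, n = 2 pools each), a log2 difference of 2.25 ± 0.58 (limma adjusted p = 0.325). Within C3H/HeJBir, Il10-null against wild type, the median of the 13 was -0.57 with 1 positive, where Ifi202b had 0.47 and Ifi204 0.31. That median rests on the sample 2 Il10-null pool: the 15 targets on the array had a median log2 deviation of 0.57 in the sample 1 and -0.40 in the sample 2 Il10-null pool, against 0.71 and 0.42 in the wild-type pools. In C57BL/6J the median of the 13 was 0.07 with 11 positive. The 0.61 of Ifi202b there comes from values without a dependable order. The -0.38 of Ifi204 turned to 0.80 without the sample 1 Il10-null pool, so neither gene is set against that median.

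Of 11 tested receptors and factors of interferon signalling, 0 passed in any of the 5 comparisons, and their median strain difference was 0.02 between Il10-null and 0.12 between wild-type pools. Irf9, which carries the type I interferon signal to the ISRE, read 317 ± 52.0 in C3H/HeJBir wild type and 178 ± 38.8 in C57BL/6J wild type (log2 0.80 ± 0.27, limma adjusted p = 0.628). Between Il10-null pools Irf9 ran the other way, at 175 ± 34.4 in C3H/HeJBir and 214 ± 33.7 in C57BL/6J. Of 13 tested binding partners of p202 and p204, 0 passed in any comparison. Rb1, the retinoblastoma gene, read 99.2 ± 1.34 in C3H/HeJBir wild type against 58.9 ± 3.50 in C57BL/6J wild type, a log2 of 0.66 ± 0.21 (limma adjusted p = 0.585). Between Il10-null pools Rb1 read 73.2 ± 0.594 in C3H/HeJBir and 73.0 ± 7.21 in C57BL/6J. Between wild-type pools 5 of the 13 partners were higher in C3H/HeJBir, while Fos, at a log2 of -0.67, and Trp53bp1, at -0.62, were lower. The median strain difference of the 13 was -0.15 between Il10-null and -0.14 between wild-type pools.

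Markers of immune cells were read in the same pools, macrophages among them, which are known to express Ifi204. The 11 macrophage markers on the array, 7 of them above the filter, summed to 4282.9 to 4811.6 in C3H/HeJBir and 3847.5 to 4815.6 in C57BL/6J pools, and 0 of the 7 tested passed in any comparison. The sum was 3847.5 in the sample 1 C57BL/6J Il10-null pool, where Ifi204 was lowest, and 3917.6 in the sample 1 C57BL/6J wild-type pool. The median log2 deviation of the markers in these pools was 0.03 in Il10-null and -0.07 in wild type. The 5 B and plasma cell markers summed to 437.5 to 953.1 in C3H/HeJBir and 338.8 to 541.7 in C57BL/6J pools, and the 4 tested had a median strain difference of 1.00 between wild-type pools and 0.11 between Il10-null pools, with 0 passing. Between wild types the median deviation of the 5 was 0.55 and 0.67 in the C3H/HeJBir pools (samples 1 and 2), against 0.36 and -0.71 in the C57BL/6J pools, so the value rests mainly on the sample 2 C57BL/6J pool. In whole colon, fewer cells of a type and less RNA per cell cannot be told apart, and the part of these cells in the strain difference of Ifi204 was not tested.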

How the data were processed

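The deposited values are intensity values on a linear scale, from 0.03 to 12860, 1 per probe set and array. The authors had brought them to a common level, since means trimmed at both ends differed between arrays by a ratio of 1.01, and this scaling was kept. The array type and hybridisation days come from the experiment files, per the file headers. No header or label names the summary algorithm, the background correction or the detection calls. By the platform annotation, 10833 probe sets carry 1 gene symbol, 396 several and 1193 none, and 10817 were matched by gene number to RefSeq (GRCm38.p6).

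Values were analysed as log2(intensity + 11.07). Tests covered the 7453 of 12422 probe sets whose mean reached 37.0, which is the 40th percentile. A model of 4 group means was fitted over all 8 arrays with limma 3.58.1 in R 4.3.3 (lmFit, eBayes, 4 residual and 4.23 prior degrees of freedom), with two-sided p values. Benjamini-Hochberg adjustment ran over all 7453, and calls were made under 0.05. The fit was tested on data simulated with independent normal noise. These data held no shift by day or sex, so the fit was not checked under such shifts. The pools of a group were treated as independent replicates, while their titles only number them. The p values thus measure the spread between pools. Within every group the pools also differed in Xist level and hybridisation day, so this spread is not that of replicates alone. Precision is limited by having 8 arrays.

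Whether the sample number pairs pools was checked by correlating deviations from group means, at 0.198 to 0.332 over the 6 pairs of groups, and the hybridisation days follow the sample number in part. Members and gene lists (family, interferon targets, interferon receptors and factors, binding partners, DNA sensing, and cell type markers) were chosen with earlier results of these data known. Named were all probe sets of the family, up to 3 members of a list with the largest difference, the 5 closest profiles per gene and the 20 nearest tested genes. A gene was read by its probe set with the highest mean. Alternatives were other pseudocounts, filters and scalings, blocks on sample number and day, fits of the compared groups, and leaving out each pool.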

Additional observations from a re-analysis of the deposited data

How the results depend on the processing

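Pseudocounts of 2.76 and 56.7 changed the strain difference of Ifi202b to 3.16 and 1.29 between Il10-null pools and to 3.91 and 1.13 between wild-type pools, as their construction implies for a gene low in 1 strain. Leaving out each pool in turn gave 2.17 to 2.81 between Il10-null and 2.39 to 2.86 between wild-type pools, and for Ifi204 0.81 to 3.15 between Il10-null and 1.00 to 1.58 between wild-type pools. No direction was stable for the Il10 effect on Ifi204: without each pool it ran from -1.55 to 0.80 in C57BL/6J (0.24 with the day as a block) and from -0.20 to 0.81 in C3H/HeJBir, and the difference between these effects from -0.49 to 1.86. For Ifi202b that difference, which draws on C57BL/6J values without a dependable order, ran from -0.45 to 0.19. It was -0.75 with the low pseudocount and 0.16 with the high pseudocount. For the probe set shared by Ifi204, Mndal, Ifi211 and Ifi205 the Il10 effect in C3H/HeJBir ran from -0.33 to 0.22 and the difference from -0.48 to 0.0708. No Il10 comparison of these probe sets passed in any setting.

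The number of probe sets called was 30 by strain between wild-type pools, and 53 with the high pseudocount, 49 with the compared groups alone and 2 to 39 without each pool. Between Il10-null pools it was 22, and 45 with the high pseudocount, 14 without a filter, 6 with the day block, 12 with the compared groups alone and 4 to 34 without each pool. For Il10 loss it was 1 in C3H/HeJBir, 0 with the low pseudocount, without a filter, with a common median, with the day block and with the compared groups alone, and 0 to 7 without each pool. In C57BL/6J it was 0, and 1 with the high pseudocount and with the filter at the 60th percentile. The causes were not tested. With the sample number as a replicate block the counts were 31, 23, 1 and 0, and no call on a member changed. Averaging probe sets turned the median of B and plasma cell markers for Il10 loss in C57BL/6J to 0.0402 and that of colon epithelium to 0.0478. The filter at the 60th percentile left out all 6 probe sets of Ifi202b and Ifi204. After quantile normalization the same 5 closest genes were found for each. Values near 11.07 or below have no dependable order, which limits Ifi202b within C57BL/6J.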

Other observations

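Further lists describe the colon in which these genes were read. Of 5 tested genes of DNA sensing and the inflammasome, through which p204 and the p202 target Aim2 act, 0 passed in any comparison, and their median log2 strain difference was 0.34 between Il10-null pools and 0.12 between wild-type pools. Il18, an inflammasome cytokine, read 604 ± 42.5 in C3H/HeJBir Il10-null against 346 ± 79.6 in C57BL/6J Il10-null pools, and 650 ± 46.4 in C3H/HeJBir wild type against 417 ± 36.5 in C57BL/6J wild type (SD, n = 2 pools each). Casp4, an inflammatory caspase, read 370 ± 9.08 in C3H/HeJBir Il10-null against 217 ± 113 in C57BL/6J Il10-null pools, a log2 difference of 0.83 ± 0.39 (limma adjusted p = 1.0).

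The other cell type lists also held 0 genes that passed in any comparison. Median log2 strain differences between Il10-null and between wild-type pools were 0.12 and -0.28 for 4 T and NK cell markers, 0.52 and 0.04 for 3 neutrophil markers, 0.06 and -0.17 for 6 smooth muscle markers, 0.04 and -0.11 for 11 colon epithelium markers and 0.09 and 0.21 for 5 exocrine pancreas genes.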
